A study of Mus musculus with 6 samples.

Results

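The 26S proteasome is the large protease that degrades ubiquitin-tagged proteins, and the genes examined here are those of its constitutive form. They were chosen by mouse symbol alone, Psma1 to Psma7, Psmb1 to Psmb7, Psmc1 to Psmc6 and Psmd1 to Psmd14, which gave 34 protein-coding genes of 54532 in the files. All 34 were found, and all 34 passed the filter on low values (an average over the 6 libraries of 0.1 FPKM or more), so no member was lost. FPKM is a read count per kilobase of a gene's annotated exons, scaled for library depth. RNA had been sequenced from the cervical spinal cord of 6 C57BL/6 mice, 1 library a mouse. The ACD group was 3 mice with allergic contact dermatitis, an itching skin inflammation, induced by squaric acid dibutylester (SADBE): 20 µl of 1% SADBE in acetone went on the shaved abdomen on 3 days and, 5 days later, on the shaved nape on 3 days. The 3 control mice received acetone alone at the nape. The labels leave unclear if control mice had the abdominal SADBE too, and they give no age, sex, or day of dissection. The labels call the libraries of a group biological replicates. Recovered reads numbered 16517302 to 18915346 in control and 18525474 to 21487894 in ACD libraries. Neuronal genes were found in every library, with the 4 genes Snap25, Rbfox3, Syt1 and Nefl summing to 706 to 954 FPKM. Most of that sum was Snap25 (323.8 to 381.5) and Nefl (334.4 to 530.3). Rbfox3 was at 23.0 to 30.7 and Syt1 at 17.2 to 25.1.

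The proteasome consists of a barrel-shaped core, which holds the proteolytic sites inside, and a regulatory particle that caps it. The core is made of outer rings of alpha subunits, whose tails form the gate, and inner rings of beta subunits. The regulatory particle has a base, whose ring of ATPases unfolds the substrate and feeds it through the gate, and a lid, which holds the enzyme that removes ubiquitin from the substrate. Cells that run short of proteasome activity are known to raise the transcription of all subunits together through Nfe2l1, a factor that binds antioxidant response elements. In neurons and glia the proteasome is the main route for removing short-lived and damaged cytosolic proteins. The 34 genes were read as 14 core genes (Psma1 to Psma7 and Psmb1 to Psmb7), 9 base genes (the 6 ATPases Psmc1 to Psmc6 with Psmd1, Psmd2 and Psmd4), 8 lid genes (Psmd3, Psmd6, Psmd7, Psmd8, Psmd11, Psmd12, Psmd13 and Psmd14) and 3 others. Those 3, Psmd5, Psmd9 and Psmd10, carry subunit symbols but encode chaperones that assemble the base and are absent from the finished particle.

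The upstream sequences of 3 core genes are shown because they are the beta genes of the highest levels and fold changes described next: Psmb4, the structural subunit with the largest difference between the groups, and Psmb5 and Psmb6, which carry catalytic sites. Each is the 150 bases before the RefSeq start, 5′ to 3′ on the gene's strand, in build GRCm38.p6, and capitals mark matches to TGACNNNGC, the core of the antioxidant response element, on either strand.
Psmb4 (chr3:94886959-94887108, minus strand): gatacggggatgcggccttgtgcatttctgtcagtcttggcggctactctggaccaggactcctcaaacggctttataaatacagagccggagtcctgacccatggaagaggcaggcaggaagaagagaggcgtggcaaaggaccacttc
Psmb5 (chr14:54617996-54618145, minus strand): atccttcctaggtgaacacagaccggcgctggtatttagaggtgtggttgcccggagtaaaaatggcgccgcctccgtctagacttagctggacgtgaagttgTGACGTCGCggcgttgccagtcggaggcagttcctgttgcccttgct
Psmb6 (chr11:70525207-70525356, plus strand): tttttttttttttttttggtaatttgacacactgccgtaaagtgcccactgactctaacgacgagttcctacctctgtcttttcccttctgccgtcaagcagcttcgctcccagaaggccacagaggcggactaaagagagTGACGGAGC
In the window from 250 bases before to 50 after the start, TGACNNNGC was found on either strand for 5 of the 28 members that had a sequence, Psmb5 (TGACGTCGC), Psmb6 (TGACGGAGC), Psmc6 (TGACTTAGC), Psmd9 (TGACCCCGC) and Psmd12 (TGACACAGC). That is 17.9% of the 28 members and 16.7% of their 30 windows, beside 12.4% of all 32851 windows of that length. The CCAAT motif was found for 11 of the 28 (39.3%), or 36.7% of their windows, beside 37.4% of all windows. GGGCGG, the GC box, was found for 18 of the 28 (64.3%), or 60% of their windows, beside 35.7%. These are letter matches only, and none of them shows a site in use.

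Every one of the 34 members had a higher fitted level in ACD than in control, by a small amount. The median log2 fold change (ACD minus control, on log2(FPKM + 0.1)) was 0.19 over the 34, against -0.01 over the 21369 genes tested and 0.03 over the 15359 protein-coding genes among them. Fold changes above 0 were seen in 48.6% of all genes tested and 55.4% of the protein-coding ones. Singly, 2 of the 34 passed an adjusted p of 0.05, Psmb4 and Psmb5, both core genes and both higher. That share of 5.88% lies near the background, since 4.34% of all genes tested passed and 1.81% passed as higher (2.53% as lower). Neither gene passed when control 1, ACD 1, ACD 2 or ACD 3 was left out, and Psmb5 also did not without control 2 or control 3. An unadjusted p under 0.05 was reached by 18 of 34 members, all higher, against 10.5% of all genes in that direction. In 20 of 34 members each ACD value lay above each control value, where 13.1% of all genes tested and 16.2% of the protein-coding ones did so. The median standard error was 0.08 for the members and 0.15 for all genes tested, with 361 to 4644 mean reads behind each member.

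**Figure D1:**
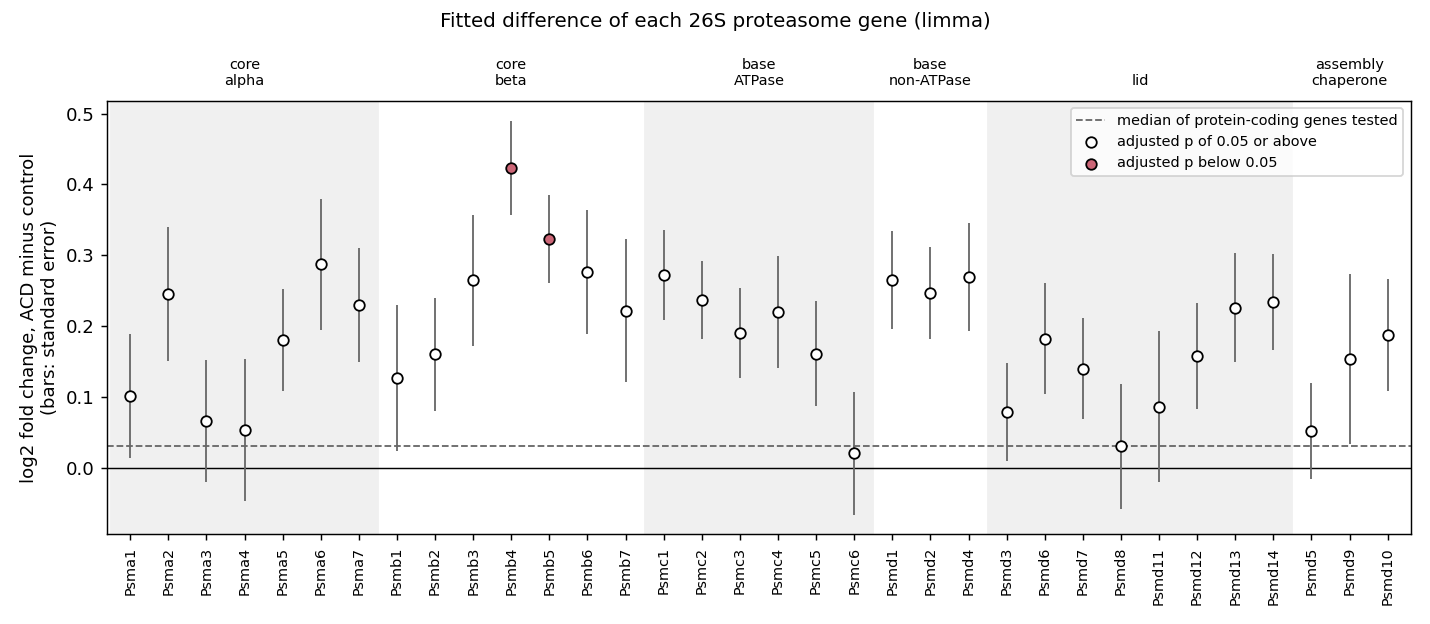
Log2 fold change of each of the 34 genes (y axis, ACD minus control on log2(FPKM + 0.1), bars are standard errors of the limma fit), grouped by the part of the particle; the dashed line is the median of protein-coding genes tested. Every point lies above 0, from 0.02 for Psmc6 to 0.42 for Psmb4, and the 2 filled points are the genes with an adjusted p below 0.05.

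The size of this shift depended on the scaling of the libraries. The deposited values were already on a common scale: their median-of-ratios size factors were 1.01 in all 6 libraries. Their totals were not equal, at 279996 to 299956 FPKM in controls and 297035 to 313140 in ACD. Scaling each library to the same total (TPM) moved the median of all genes to -0.10 and that of the members to 0.09. The gap between members and all genes was 0.20 on both scales. That follows from the method, which divides all values of a library by the same number and so moves all fold changes about equally. Under TPM, 27 of 34 members stayed above 0 (34.9% of all genes did), 11 had non-overlapping groups (6.7% of all genes did) and Psmb4 alone passed (0.959% of all genes passed as higher). Psma3, Psma4, Psmc6, Psmd3, Psmd5, Psmd8 and Psmd11 were then below 0. Taking out of each library a smooth trend on the length and GC content of the exons gave a median of 0.23 (a gap of 0.18), all 34 above 0 (57.5% of all genes were), 27 with non-overlapping groups (19.4% of all genes had them) and 7 members past the threshold (4.02% of all genes passed as higher): Psma2, Psma6, Psmb4, Psmb5, Psmc2, Psmd1 and Psmd14.

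**Figure D2:**
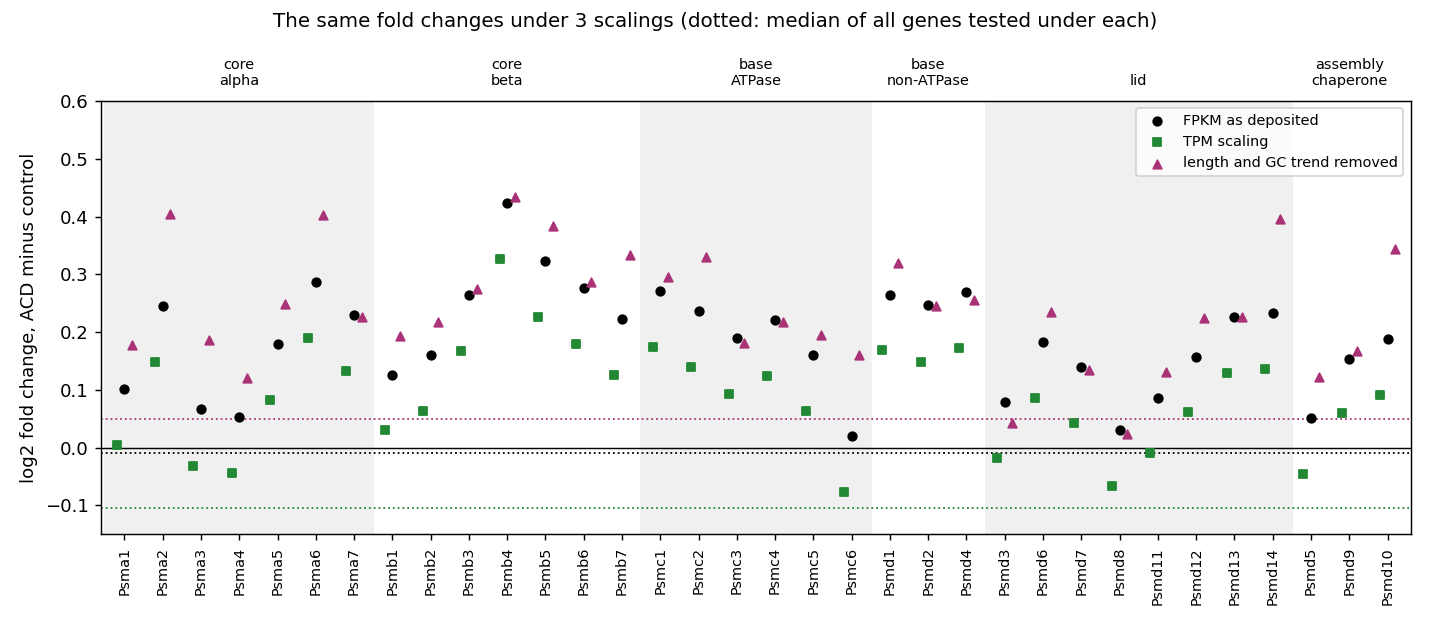
Log2 fold change of each of the 34 genes under 3 scalings (circles, FPKM as deposited; squares, TPM scaling; triangles, length and GC trend taken out), with dotted lines at the median of all genes tested under each. TPM scaling divides all values of a library by the same number, so it lowers the members and the median of all genes by about the same amount. Most members lie above the dotted line of their own scaling.

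The bulk tissue limits what a level can mean, since more RNA per cell and more cells of a type that makes it cannot be told apart. Several marker lists also stood higher in ACD in their summed FPKM, a sum that weighs the most abundant genes of a list most. The 4 astrocyte genes summed to 163 to 192 in controls and 210 to 225 in ACD (0 of 4 passed). The 4 microglia genes summed to 37.6 to 45.7 and 47.5 to 52.0 (1 of 4 passed, Tmem119), the 5 blood genes to 100.1 to 389 and 481 to 772, and the 3 Schwann cell genes to 64.0 to 121 and 190.0 to 284 (0 passed in either). Gene by gene, all ACD values lay above all controls in 1 of 4 astrocyte genes (Aqp4) and 2 of 4 microglia genes. The same held for 4 of 5 blood genes and 3 of 3 Schwann cell genes, against 13.1% of all genes tested. The blood gene Hba-a2 had a log2 fold change of -0.24, and the microglia gene P2ry12 of 0.03. The 4 neuronal genes overlapped, at 706 to 898 and 858 to 954, as did the endothelial and meningeal lists. The nuclear RNAs Malat1, Meg3 and Neat1 moved the other way, at 231 to 281 and 55.4 to 86.0 FPKM (2 of 3 passed). No gene of these lists was at 0 in any library. The part of these shifts in the proteasome values was not tested.

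The 14 core genes had a median log2 fold change of 0.23, with non-overlapping groups in 8, and both genes that passed are beta subunits. Psmb4, a structural beta subunit, was at 52.5, 58.1 and 52.0 FPKM in controls 1 to 3 and at 72.5, 74.0 and 71.3 in ACD 1 to 3. Its groups were far apart, with the lowest ACD library above the highest control by more than the range of either group. The difference was 0.42 on the log2 scale (SE 0.07, adjusted p = 0.0230), or 34.1% higher in ACD, on 2253 mean reads, and no 50-base stretch of its transcripts occurs in another gene. Psmb4 (ENSMUSG00000005779) lies on chromosome 3 at 94884093 to 94886961 in GRCm38. Psmb5, the chymotrypsin-like catalytic subunit and the main target of proteasome inhibitor drugs, was at 76.1, 76.7 and 70.9 FPKM in controls and at 90.6, 93.7 and 95.5 in ACD. These groups did not overlap either, and the difference was 0.32 (SE 0.06, adjusted p = 0.0382). Psmb5 (ENSMUSG00000022193, chromosome 14 at 54614119 to 54618022) is less certain, because 54.1% of its 50-base words occur in other gene models, mainly Gm3375, and 12.1% of its exon length overlaps Mir686.

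The other catalytic subunits moved less and did not pass. Psmb6, the caspase-like subunit, was at 43.3, 50.7 and 41.7 FPKM in controls and at 57.2, 53.6 and 53.1 in ACD (0.28, SE 0.09, adjusted p = 0.125), with no overlap. Psmb7, the trypsin-like subunit, was at 24.5, 30.8 and 24.7 in controls and at 31.5, 32.0 and 29.4 in ACD (0.22, SE 0.10, adjusted p = 0.248). Control 2 of Psmb7 lay above ACD 3, while the other controls lay below every ACD library. The remaining beta subunits, all structural, had fold changes of 0.13 for Psmb1, 0.16 for Psmb2 and 0.26 for Psmb3, the first with overlapping groups. The beta genes had a median of 0.26 and non-overlapping groups in 5 of 7.

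The 7 alpha genes had a median log2 fold change of 0.18, none passed and 3 had non-overlapping groups. The largest difference was that of Psma6, at 70.0, 84.6 and 67.9 FPKM in controls and at 89.6, 92.1 and 88.6 in ACD (0.29, SE 0.09, adjusted p = 0.130). All 3 ACD libraries of Psma6 lay above its controls, of which control 2 stood well above the other 2. The smallest was that of Psma4, whose tail is central to the closed gate, at 25.02, 31.4 and 25.01 in controls and at 26.9, 28.1 and 29.1 in ACD (0.05, SE 0.10, adjusted p = 0.796). Here control 2 was the highest of all 6 libraries. Psma5, Psma7 and Psma2 were at 0.18, 0.23 and 0.25, and Psma1 and Psma3 at 0.10 and 0.07. Psma3, the lowest alpha gene in level, was at 17.4, 20.1 and 17.0 FPKM in controls and at 19.8, 19.5 and 17.7 in ACD, with groups that overlapped. Psma5 is less certain than the rest, with 50% of its 50-base words also in other gene models, mainly Gm8394 and Gm12989.

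Control 2 was the highest of the 3 controls in 13 of 14 core genes, including all 7 alpha genes, while each control was the highest in 33.0% to 33.3% of all genes tested. Relative to the mean of the controls, the median core gene was at -0.08, 0.18 and -0.09 on the log2 scale in controls 1 to 3 and at 0.24, 0.24 and 0.16 in ACD 1 to 3. The 6 core genes with overlapping groups, Psma1, Psma2, Psma3, Psma4, Psmb1 and Psmb7, overlapped through control 2 alone. The base did not share this: control 2 was the highest control in 4 of 9 base genes and control 3 in 5, and the base medians were -0.05, -0.01 and 0.09 in controls and 0.22, 0.25 and 0.25 in ACD. With control 2 left out, the core median rose from 0.23 to 0.32 while the base median went from 0.24 to 0.23. Without that library 28 of 34 members had non-overlapping groups (19% of all genes did), and Psma6 and Psmb4 passed in place of Psmb4 and Psmb5 (1.38% of all genes passed as higher). Across the 34 genes the deviation of control 2 from the control mean had a Spearman rho of -0.45 with the GC content of the transcripts and of 0.12 with exon length, as a description of genes that share a library. With the length and GC trend taken out, the core medians of controls 1 to 3 were -0.10, 0.12 and -0.02, beside -0.08, 0.18 and -0.09 as deposited. Control 2 remained the highest, by a smaller margin over control 3, and the part of length and GC in its deviation was not tested.

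**Figure D3:**
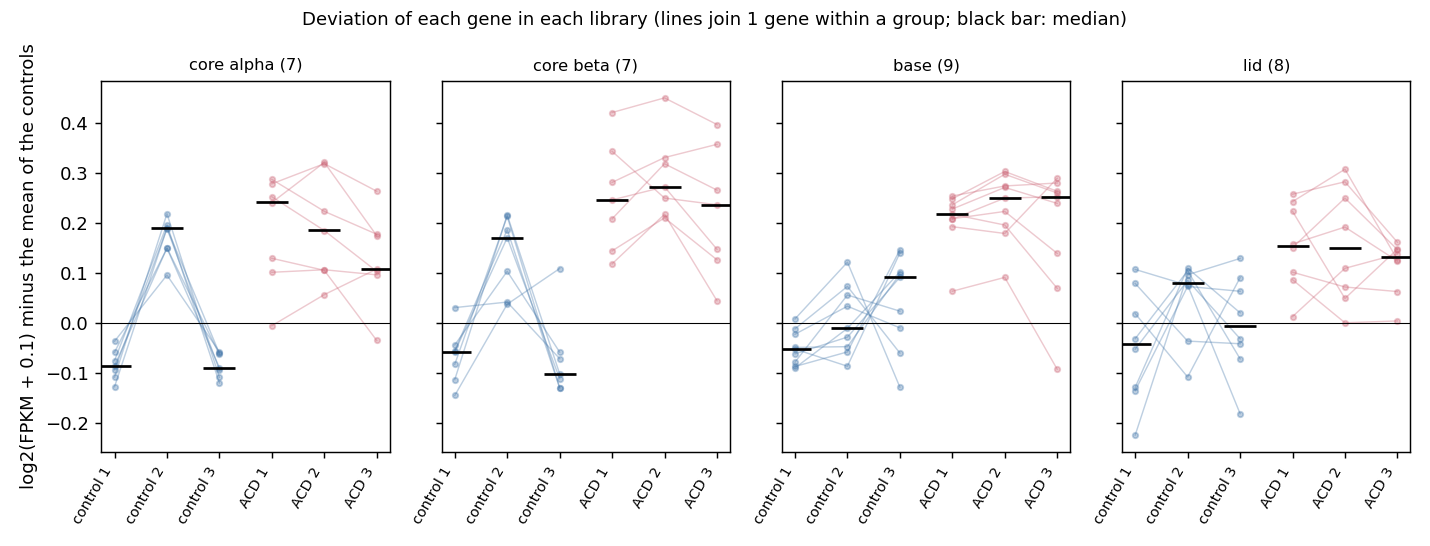
Deviation of each gene from the mean of its 3 controls (y axis, log2(FPKM + 0.1)) in each of the 6 libraries, for the alpha, beta, base and lid genes; thin lines join the values of 1 gene within a group and black bars are medians. Control 2 stands above the other controls in all 7 alpha genes and in 6 of 7 beta genes, and in 4 of 9 base and 4 of 8 lid genes.

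The 9 base genes had a median log2 fold change of 0.24, and 7 of 9 had non-overlapping groups. None passed by limma, where 7 of 9 had an unadjusted p under 0.05, and 1 passed with voom, Psmc1 (7.91% of all genes passed with voom, 3.28% as higher). The base genes varied little between libraries, so that their standard errors were small, with a median of 0.07. Psmc1, an ATPase and the base gene with the largest difference, was at 90.4, 99.2 and 97.0 FPKM in controls and at 113, 118 and 115 in ACD. Its groups were well apart (0.27, SE 0.06, adjusted p = 0.0598; with voom adjusted p = 0.0378). Psmc2, another ATPase, was at 17.8, 18.5 and 17.9 in controls and at 20.9, 21.5 and 21.5 in ACD (0.24, SE 0.06, adjusted p = 0.0620), with the tightest controls of the 34 genes relative to the difference. Psmc3 and Psmc4 were at 0.19 and 0.22 with non-overlapping groups. Psmc5, the gene of the highest level, was at 166, 170 and 184 in controls and at 201, 198 and 182 in ACD (0.16, SE 0.07, adjusted p = 0.254), where ACD 3 fell below control 3. Psmc6 had the smallest difference of the 34, at 28.7, 31.04 and 26.1 in controls and 29.8, 30.4 and 26.7 in ACD (0.02, SE 0.09, adjusted p = 0.914).

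The non-ATPase genes of the base had fold changes close to each other. Psmd1, a large scaffold subunit, was at 14.8, 15.6 and 16.9 FPKM in controls and at 18.6, 19.4 and 18.9 in ACD (0.26, SE 0.07, adjusted p = 0.0799). Psmd2, the scaffold that docks ubiquitin shuttles, was at 46.0, 46.0 and 50.9 in controls and at 55.7, 57.4 and 56.2 in ACD (0.25, SE 0.07, adjusted p = 0.0822). Psmd4, a ubiquitin receptor, was at 26.3, 26.8 and 30.9 in controls and at 33.3, 33.8 and 33.95 in ACD (0.27, SE 0.08, adjusted p = 0.0976). In these 3 genes control 3 was the highest control and the ACD libraries lay close together above it. With control 3 left out, Psmd2 (adjusted p = 0.0459) and Psmd4 (adjusted p = 0.0387) passed beside Psmb4, and Psmb5 did not (adjusted p = 0.0506); 1.47% of all genes then passed as higher.

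The lid had the lowest median log2 fold change of core, base and lid, at 0.15, with non-overlapping groups in 4 of 8 genes, and none past the threshold by limma or voom (2 of 8 had an unadjusted p under 0.05). Psmd14, the enzyme that cuts ubiquitin chains off the substrate, had the largest difference. It was at 21.8, 24.0 and 22.1 FPKM in controls and at 27.0, 27.5 and 25.3 in ACD (0.23, SE 0.07, adjusted p = 0.102), with all ACD libraries above the controls. Psmd13, a scaffold subunit, was at 0.23 (adjusted p = 0.149), and Psmd6 and Psmd12, of the same structural kind, were at 0.18 and 0.16, each with non-overlapping groups. Psmd7, the inactive partner of Psmd14 and the lid gene of the highest level, was at 41.5, 38.3 and 38.2 in controls and at 45.9, 40.6 and 43.5 in ACD (0.14, SE 0.07, adjusted p = 0.300). Its control 1 lay above ACD 2. The smallest difference was that of Psmd8, at 25.3, 24.7 and 20.7 in controls and at 24.9, 23.4 and 23.5 in ACD (0.03, SE 0.09, adjusted p = 0.875). The groups of Psmd8 overlapped throughout. Psmd3 was at 0.08, and Psmd11, the lid gene of the lowest level, was at 6.57, 8.23 and 8.42 in controls and 7.76, 8.30 and 8.47 in ACD (0.09, SE 0.11, adjusted p = 0.677).

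The 3 base assembly chaperones lay low in level and none passed by limma or voom (1 of 3 had an unadjusted p under 0.05). Psmd10, known as gankyrin, was at 13.2, 12.2 and 12.5 FPKM in controls and at 13.7, 15.8 and 13.7 in ACD (0.19, SE 0.08, adjusted p = 0.221), without overlap. Psmd5 was at 8.16, 8.46 and 7.59 in controls and at 8.49, 8.23 and 8.36 in ACD (0.05, SE 0.07, adjusted p = 0.697). Psmd9 was at 3.55, 4.05 and 2.98 in controls and at 3.74, 4.03 and 3.93 in ACD (0.15, SE 0.12, adjusted p = 0.508), and 25.5% of its exon length overlaps Gm26745 on the other strand. The groups of Psmd5 and Psmd9 overlapped. The difference between core, base, lid and chaperones in fold change was not tested.

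The subunits are assembled in equal numbers, yet their transcripts ranged widely in FPKM, a level per length. Control means ran from 7.74 ± 1.02 for Psmd11 to 173 ± 9.80 for Psmc5 (SD, n = 3) among the 31 genes of the finished particle, a ratio of 22.4, and the core alone from 18.2 ± 1.69 for Psma3 to 74.5 ± 3.19 for Psmb5, a ratio of 4.10. The length in FPKM is that of all annotated exons of a gene together, so these ratios between genes depend on the annotation. Psmc5 had 1394 bases and 4644 mean reads, and Psmd11 6383 bases and 923 mean reads. Psmb5 had 899 bases and 1372 mean reads, and Psma3 3894 bases and 1315 mean reads. In descending order of FPKM the first 5 were Psmc5, Psmc1, Psmb5, Psma6 and Psmb4. Of the 33 neighbouring pairs in the order over all 34 genes, 9 were separate in the sense that each control of the higher gene lay above each control of the lower. Psmb5 and Psma6, for example, at 74.5 ± 3.19 and 74.2 ± 9.09, did not differ beyond their spread, and Psmd6 to Psmd14, at 25.4 to 22.6, overlapped each with the next. The order was nearly the same in ACD, with a Spearman rho of 0.98 across the 34 genes and a largest shift of 6 places, that of Psmc6. Fold change had a Spearman rho of 0.42 with control level, -0.35 with exon length and 0.23 with GC content across the 34 genes, which share their libraries.

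**Figure D4:**
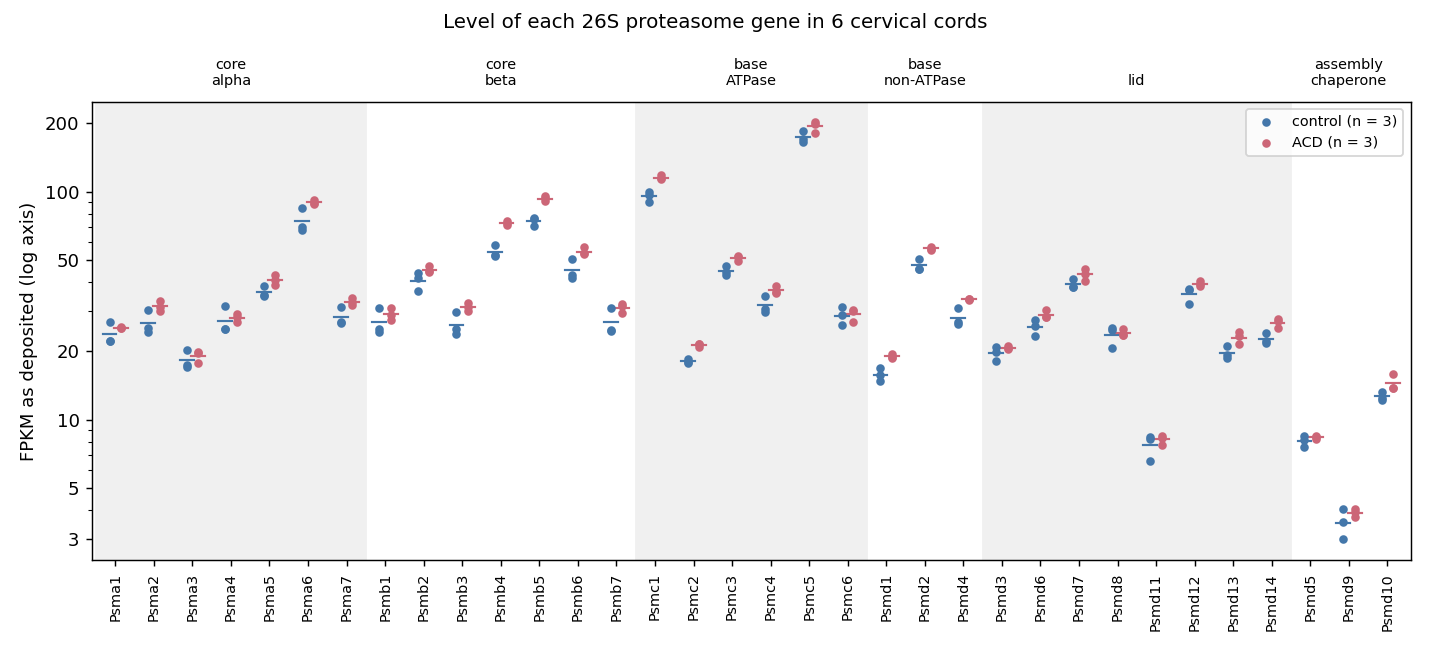
FPKM of each of the 34 genes (log axis) in the 3 control and 3 ACD libraries, points for libraries and short bars for group means, grouped by the part of the particle. Psmc5 and Psmc1 stand highest and Psmd9 lowest, and the ACD points sit slightly above the control points in most genes.

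The balance between the parts of the particle was measured as the ratio of summed FPKM within each library. Such a ratio does not change when all values of a library are scaled alike, but the length and GC trend was not taken out of it. Core over base was 1.08, 1.201 and 0.996 in controls 1 to 3 and 1.12, 1.12 and 1.13 in ACD 1 to 3, so the ACD libraries lay inside the range of the controls. Lid over base was 0.408, 0.411 and 0.381 in controls and 0.388, 0.380 and 0.386 in ACD, which overlapped as well. Beta over alpha was 1.28, 1.21 and 1.28 in controls and 1.32, 1.34 and 1.35 in ACD, without overlap. A sum weighs its most abundant genes most. Among the beta genes these were Psmb5 and Psmb4, with control means of 74.5 and 54.2 FPKM, the 2 members that passed. The ratio is thus not separate from those 2 calls, and it was not taken without them. The spread of single genes was smaller in ACD: the SD of the controls exceeded that of the ACD libraries in 29 of 34 members and in 66.4% of all genes tested. The median coefficient of variation was 8.48% in controls and 3.85% in ACD for the members, and 10.8% and 7.45% for the protein-coding genes tested.

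Of the 40 related genes tested, 2 rose and none fell (limma; 5 rose and 2 fell with voom), where 1.81% of all genes tested rose and 2.53% fell. The 2 were Psmb10 and Vcp, and each lost its call in 5 of 6 leave-outs of 1 library. Psmb10 passed only without control 2 (adjusted p = 0.0261; 0.0770 to 0.124 in the others) and Vcp only without control 3 (adjusted p = 0.0424; 0.0953 to 0.158 in the others). Vcp also did not pass after TPM scaling (adjusted p = 0.174). All ACD values lay above all controls in 11 of the 40 and below in 4, against 13.1% and 15.5% of all genes tested. Vcp, the ATPase that extracts ubiquitinated proteins for the proteasome, was at 42.9, 43.1 and 48.0 FPKM in controls and at 55.4, 54.7 and 59.9 in ACD (0.34, SE 0.07, adjusted p = 0.0488). Its groups were apart, but 43.6% of its words are shared, mostly with Vcp-rs. The regulatory particle subunits named outside the Psm series had all ACD values above the controls; neither passed by limma, and both passed with voom (adjusted p = 0.0353 for Adrm1 and 0.0202 for Sem1). Sem1 also passed with the length and GC trend taken out (adjusted p = 0.0105) and without control 2 (adjusted p = 0.0339). Adrm1, a ubiquitin receptor of the base, was at 10.7, 9.90 and 11.1 in controls and 12.3, 13.4 and 14.2 in ACD (0.33, SE 0.08, adjusted p = 0.0666; 25.7% of its words are shared with Gm9774), and Sem1, the small lid subunit, at 11.3, 13.03 and 10.5 in controls and 15.9, 15.3 and 14.7 in ACD (0.40, SE 0.09, adjusted p = 0.0553). Pomp, which assembles the core, was at 19.5, 24.4 and 20.0 and at 24.1, 24.1 and 21.5, with overlapping groups (0.13, SE 0.10, adjusted p = 0.510). Nfe2l1 itself was at 87.4, 78.8 and 90.7 FPKM in controls and 88.4, 89.4 and 92.0 in ACD (0.07, SE 0.07, adjusted p = 0.588), and after TPM scaling its fold change was -0.02.

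**Figure D5:**
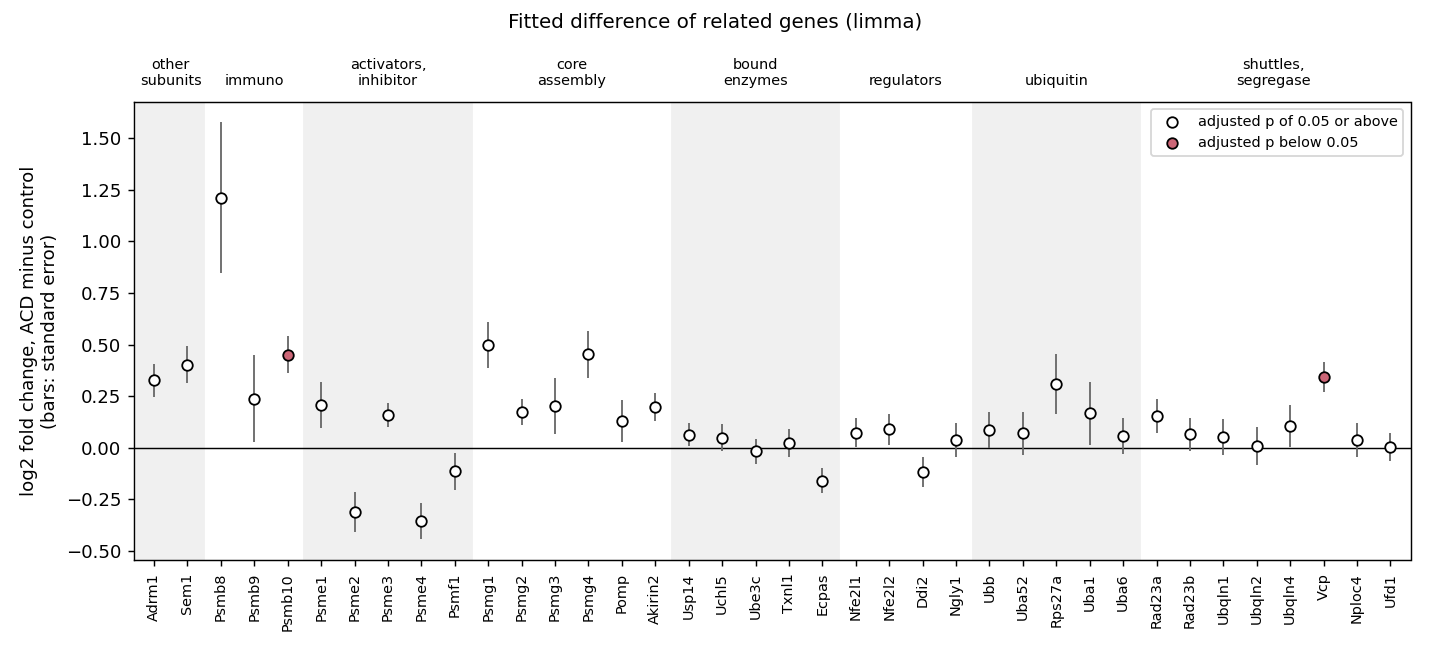
Log2 fold change of related genes (y axis, ACD minus control on log2(FPKM + 0.1), bars are standard errors of the limma fit), grouped by role; Psma8, at few reads, and 1 other tested gene are not drawn. Filled points are the 2 genes with an adjusted p below 0.05, Psmb10 and Vcp, and Psmb8 has the largest fold change and the largest error.

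The inducible subunits that replace the catalytic ones in the immunoproteasome were compared with their constitutive counterparts inside each library. The size of such a ratio also depends on the exon lengths of its genes, such as 1705 bases for Psmb10 and 3421 for Psmb7. Psmb10 rose from 13.4, 16.7 and 14.4 FPKM to 20.5, 20.2 and 20.0 (0.45, SE 0.09, adjusted p = 0.0390) and stood at 54.6, 54.2 and 58.4 per 100 of Psmb7 in controls and 65.0, 63.1 and 68.1 in ACD, without overlap. Psmb8 was at 0.951, 0.983 and 0.316 in controls and 1.69, 1.86 and 1.58 in ACD (1.21, SE 0.37, adjusted p = 0.112), which is 0.446 to 1.28 and 1.65 to 1.98 per 100 of Psmb5. Control 3 of Psmb8 lay far below the other controls. Psmb9 was at 0.436, 0.618 and 0.599 in controls and 0.583, 0.770 and 0.642 in ACD (0.24, SE 0.21, adjusted p = 0.550), at 1.01 to 1.44 and 1.02 to 1.44 per 100 of Psmb6. By FPKM the constitutive Psmb5 and Psmb6 thus exceeded Psmb8 and Psmb9 by far in every library of both groups. Psmb8 and Psmb9 rested on 76.5 and 40.7 mean reads, and Psmb8 passed with voom (adjusted p = 0.0258).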

How the data were processed

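The authors deposited FPKM, 1 table per library; that unit follows from the values, which fall on whole reads (within 0.05) at GENCODE M21 exon lengths for 96.7% to 97.0% of values above 0. The build mm10 and the tools featureCounts 1.5.0-p3, HISAT2 2.0.5 and DESeq2 1.16.1 are named, with no roles, per the submitters' processing notes. Strand setting and annotation: not given in the sources used here. The denominator recovered from those steps was 16916599 to 18583992 in controls and 17346315 to 20245577 in ACD libraries. It differed from the sum of recovered reads, and 1 read in a gene with 2000 bases of exons was worth 0.0247 to 0.0296 FPKM.

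Limma 3.58.1 in R 4.3.3 (lmFit, eBayes with trend and robust) was fitted to log2(FPKM + 0.1) of the 21369 genes averaging 0.1 FPKM or more, on group alone, with Benjamini-Hochberg adjustment over all of them and a threshold of 0.05. P-values measure the spread among 3 mice a group. Symbols matched for 54409 identifiers, and 54495 were in GENCODE M21 (GRCm38). Shared words are 50-base stretches of a gene's transcripts found in another gene's transcripts; 8 members had at least 10% shared. Promoter windows are RefSeq's (GRCm38.p6); Psmb1, Psmb2, Psmb7, Psmc3, Psmd3 and Psmd7 had none.

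All 34 members could be named, with every library's value for passing members, catalytic subunits and the extremes of each class, as well as other members shown for comparison after their values were seen; of the related genes, those that passed and 7 set ones. The members and lists were chosen with earlier results of these data known. Alternatives were other pseudocounts, filters, scalings, voom on recovered reads, a replicate block and leaving out each library. The fit was tested on simulated data. Values of 1 related gene and of the oligodendrocyte markers are not reported here.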

Additional observations from a re-analysis of the deposited data

How the results depend on the processing

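Fewer genes passed in most alternatives, and the direction of the class medians held in each of them. Over all genes tested 927 passed, against 556 without a filter, 420 without the trend and robust settings and 1690 with voom. Of the members 2 passed, against 1 without a filter, 1 after TPM scaling, 7 with the length and GC trend taken out, 3 with voom (Psmc1 beside Psmb4 and Psmb5) and 0 without the trend and robust settings (10 by unadjusted p). With 1 library left out 0 to 3 members passed (180 to 627 genes), 0 without control 1, ACD 1, ACD 2 or ACD 3, where 11, 10, 10 and 16 members had an unadjusted p under 0.05 by limma. The share of all genes under that limit is not given for these alternatives, so their counts by unadjusted p lack a background. In the main limma fit it was 22.3% in both directions together. The adjusted p of Psmb4 ran from 0.00566 to 0.0920 over all alternatives and that of Psmb5 from 0.0188 to 0.141. Members with non-overlapping groups numbered 20 (13.1% of all genes tested were also higher without overlap), against 11 after TPM scaling (6.7% of all genes). With 1 library left out they numbered 20 to 28, the 28 being without control 2 (19% of all genes). Groups of fewer libraries separate more easily, so the counts with 1 library left out cannot be set against the 20. The shares of all genes for the other leave-outs are not given. TPM scaling moved the core median from 0.23 to 0.13, the base median from 0.24 to 0.14 and the lid median from 0.149 to 0.052, by about the same amount each. The spread between libraries (pooled SD of library medians) was 0.1138 in the core, 0.0854 in the base and 0.0733 in the lid. The move thus exceeded the spread in base and lid, and not in the core, where the spread was wider. With 1 library left out the core median was 0.17 to 0.32, the base 0.22 to 0.28 and the lid 0.10 to 0.17.

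Of the related genes 2 passed, against 1 with a pseudocount of 1, 0 without a filter, 5 with a mean of at least 1 FPKM, 7 after removal of the trend, 7 with voom, 0 without the trend and robust settings and 0 to 2 with 1 library left out. Median-of-ratios scaling gave the deposited calls, because its size factors were equal.

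The fold changes of these genes turned negative after TPM scaling: Psma3 to -0.031, Psma4 to -0.044, Psmc6 to -0.077, Psmd3 to -0.018, Psmd8 to -0.067, Psmd11 to -0.010, Psmd5 to -0.045 and Nfe2l1 to -0.024. With 1 library left out Psma4 ran from -0.002 (without control 1 or control 3) to 0.162, Psmc6 from -0.044 (without control 3; -0.001 without ACD 1 and -0.015 without ACD 2) to 0.081, Psmd8 from -0.061 (without control 3) to 0.083 and Psmd11 from -0.026 (without control 1) to 0.151. None of these had passed.

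Replicate numbers are shared by the groups. Across all genes, the deviations of same-numbered libraries from their group means had correlations of -0.028, 0.015 and 0.003. Such values over all genes cannot decide if same-numbered libraries share a day or batch that moves some genes. Among the 34 members, control 2 was the highest control in 23 and ACD 2 the highest ACD library in 19. Whether this reflects a pairing was not tested. With the replicate block 181 genes passed, 0 members and 0 related genes by limma (19 members by unadjusted p). With the replicate block and the length and GC trend removed 218 genes passed, 0 members and 0 related genes (24 members by unadjusted p). For both of these fits the share of all genes by unadjusted p is not given, so the member counts lack a background.

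The cause of each change with a setting was not tested.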

Other observations

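Values of genes around the proteasome lay on both sides of 0. None of those named here passed the adjusted threshold by limma, and all were chosen after their values were seen. Psmg1 and Psmg4, chaperones that assemble the core, had every ACD value above every control value: Psmg1 was at 6.91, 6.57 and 6.26 FPKM in controls and 10.04, 7.87 and 10.3 in ACD (0.50, SE 0.11, adjusted p = 0.0560), and Psmg4 at 9.37, 11.8 and 9.66 and at 15.7, 12.8 and 13.8 (0.45, SE 0.11, adjusted p = 0.0737). The alternative caps of the core differed in direction. Psme3 was at 27.8, 27.8 and 29.2 FPKM in controls and 32.1, 32.3 and 30.4 in ACD, without overlap (0.16, SE 0.06, adjusted p = 0.172), and Psme1 had a fold change above 0 with overlapping groups (0.21, SE 0.11, adjusted p = 0.320). Psme4 and Psme2 had every ACD value below every control value. Psme4 was at 7.34, 6.84 and 6.996 in controls and 5.51, 6.03 and 4.98 in ACD (-0.36, SE 0.09, adjusted p = 0.0697), and Psme2, with 28.3% of its words shared, mainly with Psme2b, at 8.18, 6.56 and 7.26 and at 5.95, 5.54 and 6.14 (-0.31, SE 0.10, adjusted p = 0.122).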
